A study of Mus musculus with 11 samples.

Results

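The 6 genes described here are the activators of the circadian clock, Arntl, Clock and Npas2, and a group of nuclear receptors that control them, Nr1d1, Nr1d2 and Rora. They were found by their symbols in the deposited mRNA table, in which each has a single probe set, so that 6 of 28350 probe sets and 6 of 21759 gene symbols are described. RNA came from the tibialis anterior (TA), a fast muscle of the lower leg, of 11 male mice labelled as strain C57/B10, where the methods name C57/Bl10 for the wild type and C57/Bl10ScSn-Dmd mdx/J for *mdx*, all 14 weeks of age and each with an Affymetrix Mouse Gene ST 1.1 array of its own. The groups were 3 untreated wild-type mice (C57), 4 untreated *mdx* mice and 4 *mdx* mice that had received Pip6e-PMO once into the tail vein, 12.5 mg/kg at 12 weeks of age. *mdx* mice carry a nonsense mutation in Dmd, the gene of dystrophin, and all mice of both *mdx* groups share it. Pip6e-PMO is an antisense oligonucleotide joined to a peptide, which makes the splicing machinery skip the mutated exon. The RNA came from cryosections of the mid-belly of the muscle. The time of day at which the mice were killed is not given in the sources used here. Group and hour of killing therefore cannot be told apart in the clock gene results below.

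The clock is a feedback loop inside each cell. ARNTL, also called BMAL1, pairs with CLOCK or with its close relative NPAS2, and the pair binds E-box sequences and switches on the genes of its own repressors (Per1, Per2, Per3, Cry1 and Cry2), of output factors such as Dbp, and of Nr1d1 and Nr1d2. The products of Nr1d1 and Nr1d2, REV-ERBα and REV-ERBβ, repress Arntl and Npas2 through ROR response elements, while RORα, the product of Rora, activates through the same elements. In skeletal muscle, as in other tissues, Arntl and Nr1d1 mRNA rise and fall once a day in opposite phase, and the muscle clock is known for its control of glucose and lipid use.

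Promoter windows of RefSeq (GRCm38.p6), which run from 250 bases before to 50 bases after an annotated start, matched all 6 genes, with 2 windows for Arntl, 3 for Clock and 1 for each of the other genes. They were searched on both strands for the E-box CACGTG, the related CACGTT and the D-box TTANGTAA. The receptor element AGGTCA, its extended form TAGGTCA and the related TGGGTCA were searched too. Each TAGGTCA also counts as an AGGTCA. Those of Npas2 and Arntl, the genes with the largest differences, and of the REV-ERB genes are shown because these genes control each other. Of the 2 Arntl windows only 1 is shown. Capitals mark the matches.
Npas2 (chr1:39194022-39194321, plus strand): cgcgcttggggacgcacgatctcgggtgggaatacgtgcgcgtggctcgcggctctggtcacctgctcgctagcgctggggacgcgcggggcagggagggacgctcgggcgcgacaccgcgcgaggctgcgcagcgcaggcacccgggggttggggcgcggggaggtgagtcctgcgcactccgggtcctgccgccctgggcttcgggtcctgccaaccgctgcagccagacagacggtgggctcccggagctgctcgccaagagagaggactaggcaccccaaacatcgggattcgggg
Arntl (chr7:113207261-113207560, plus strand): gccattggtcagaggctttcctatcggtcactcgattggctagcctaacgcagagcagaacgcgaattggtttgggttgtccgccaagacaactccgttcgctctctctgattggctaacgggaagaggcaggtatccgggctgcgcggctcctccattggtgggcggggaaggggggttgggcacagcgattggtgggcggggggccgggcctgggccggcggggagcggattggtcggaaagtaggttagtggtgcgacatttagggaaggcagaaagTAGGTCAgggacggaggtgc
Nr1d1 (chr11:98775328-98775627, minus strand): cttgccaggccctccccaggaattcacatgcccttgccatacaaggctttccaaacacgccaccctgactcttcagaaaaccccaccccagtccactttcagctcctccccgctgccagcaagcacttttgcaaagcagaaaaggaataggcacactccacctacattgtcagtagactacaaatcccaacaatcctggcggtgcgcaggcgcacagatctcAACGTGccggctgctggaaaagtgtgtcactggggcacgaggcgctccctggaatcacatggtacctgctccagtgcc
Nr1d2 (chr14:18239057-18239356, minus strand): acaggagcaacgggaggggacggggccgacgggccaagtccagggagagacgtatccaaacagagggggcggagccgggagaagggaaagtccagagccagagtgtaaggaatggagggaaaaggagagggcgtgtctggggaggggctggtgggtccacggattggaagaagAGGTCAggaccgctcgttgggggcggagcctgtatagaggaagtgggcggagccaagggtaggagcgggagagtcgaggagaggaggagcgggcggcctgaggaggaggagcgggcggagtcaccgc
The Arntl window shown, 1 of 2, holds TAGGTCA, with its first letter at base 31 counted from the annotated start. This match is found in 2.61% of all 32851 windows. The other Arntl window held none of the letters searched. The Nr1d1 window holds CACGTT on the opposite strand, where it reads AACGTG, as in 4.68% of windows. The Nr1d2 window has AGGTCA, as do 16.3% of windows. In the Npas2 and Rora windows none of these letters was found, and among the 3 Clock windows there was only an AGGTCA in the third. No window of the 6 genes held CACGTG, which is in 7.15% of all windows, and none held TTANGTAA (2.32%) or TGGGTCA (3.98%). These matches describe letters within 300 bases and say nothing about binding in these muscles.

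All 6 probe sets reached a mean signal of 30 in at least 1 group, the minimum of the study's methods, and were tested with 14494 probe sets in all. The annotation marks the probes of all 6 as unique to their gene. Median signals per array were 27.5 to 28.6. The 8 markers of adult skeletal muscle fibres had a summed linear signal of 58600 to 61600 over all mice. They were called in no comparison by limma, with 1 at an unadjusted p under 0.05 between treated and C57 mice. All 8 stood at or above the 98.5 percentile of probe sets on every array, which limits how far a difference can show. Treated mouse T2 stood apart, with a deviation from its group mean of 0.289 at probe sets that no comparison called (scaled median absolute deviation, log2), against 0.115 to 0.193 in the other 10 mice. Dmd, which the mutation and the treatment target, had a mean log2 signal of 5.82 ± 0.05 (SD) in the 3 C57 mice. It was 5.28 ± 0.50 in the 4 *mdx* mice and 5.80 ± 0.37 in the 4 treated mice, and no comparison called it. All values below are log2 signals unless stated, a difference is one of group means in log2, and a gene counts as called where its p-value in limma, adjusted over all 14494 probe sets by Benjamini and Hochberg, is below 0.05. Only levels of the same gene are compared, since probe sets differ in brightness.

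In limma, 2 of the 6 genes, Npas2 and Arntl, were higher in *mdx* than in C57 mice and 0 lower, with 4 at an unadjusted p under 0.05, beside 7.06% of all 14494 probe sets called higher and 4.96% called lower. Groups did not overlap for 3 of the 6, against 24.3% of all probe sets. Between treated and *mdx* mice 3 genes, the receptors, were higher and 0 lower, beside 7.26% of all probe sets called higher and 3.88% lower, and 2 had groups that did not overlap, beside 16.0%. Between treated and C57 mice 3 genes, the activators, were higher and 0 lower, beside 15.6% and 8.96% of all probe sets, and 4 had groups that did not overlap, beside 32.0%. The median difference of the 6 genes was 0.21, 0.35 and 0.58 in these comparisons in turn, and that of all probe sets tested was -0.01, 0.02 and 0.00. The comparisons share groups: the same *mdx* mice are set against C57 and against treated mice, so that a low *mdx* value lowers the former difference and raises the latter.

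The 3 activators, the positive arm of the clock, were compared first between the groups, whose hours of killing are not known. Npas2 and Arntl were higher in *mdx* than in C57 muscle, Npas2 by 6.91-fold and Arntl by 2.9-fold, and levels of both in treated muscle were also above those in C57 muscle. Clock showed smaller and more scattered differences and was called only between treated and C57 mice.

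Npas2 encodes a partner of ARNTL that can stand in for CLOCK. Its signals were 4.95, 5.05 and 5.01 in the C57 mice, 7.57, 8.00, 7.88 and 7.72 in the *mdx* mice, and 7.52, 7.52, 7.45 and 7.87 in the treated mice T1 to T4. The C57 mice lay far below both other groups, and the *mdx* and treated mice overlapped. In *mdx* against C57 mice the difference was 2.79 (95% confidence interval 2.51 to 3.06, adjusted p = 1.9e-07 in limma), with the third smallest p-value of all 14494 probe sets (rank 3). Treated minus C57 was 2.59 (2.31 to 2.86, adjusted p = 1.4e-06), which had the smallest p-value of that comparison (rank 1). Treated minus *mdx* was -0.20 (-0.46 to 0.05, adjusted p = 0.259). The C57 signals lay near the background: their linear mean was 32.1, close to the minimum of 30, and on each C57 array Npas2 stood between the 52.0 and 53.4 percentiles of all probe sets, which limits how large a fold can be measured.

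Arntl encodes ARNTL, which pairs with CLOCK or with NPAS2. Its signals were 5.77, 5.30 and 5.31 in C57, 6.93, 7.19, 6.93 and 6.93 in *mdx*, and 7.22, 6.72, 7.21 and 7.70 in treated mice. Every *mdx* and every treated mouse was above every C57 mouse, and treated mice spread over a range that took in all the *mdx* mice. The difference between *mdx* and C57 was 1.53 (1.11 to 1.96, adjusted p = 4.5e-04), that between treated and C57 was 1.75 (1.33 to 2.18, adjusted p = 1.9e-04), and that between treated and *mdx* was 0.22 (-0.18 to 0.61, adjusted p = 0.434).

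Clock encodes the usual partner of ARNTL. Its signals were 5.32, 5.34 and 5.06 in C57, 6.19, 5.92, 5.74 and 5.13 in *mdx*, and 6.34, 5.81, 5.97 and 6.37 in treated mice. *mdx* replicate 4 lay among the C57 mice while the other *mdx* mice lay above them, and all treated mice were above all C57 mice. The difference between *mdx* and C57 was 0.50 (0.03 to 0.98) and was not called (adjusted p = 0.175), but without *mdx* replicate 4 it was 0.71 with an adjusted p of 0.0242. Treated minus C57 was 0.88 (0.40 to 1.36, adjusted p = 0.0142), a call that was lost without C57 replicate 3 (adjusted p = 0.0638), and treated minus *mdx* was 0.38 (-0.06 to 0.82, adjusted p = 0.225).

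**Figure D1:**
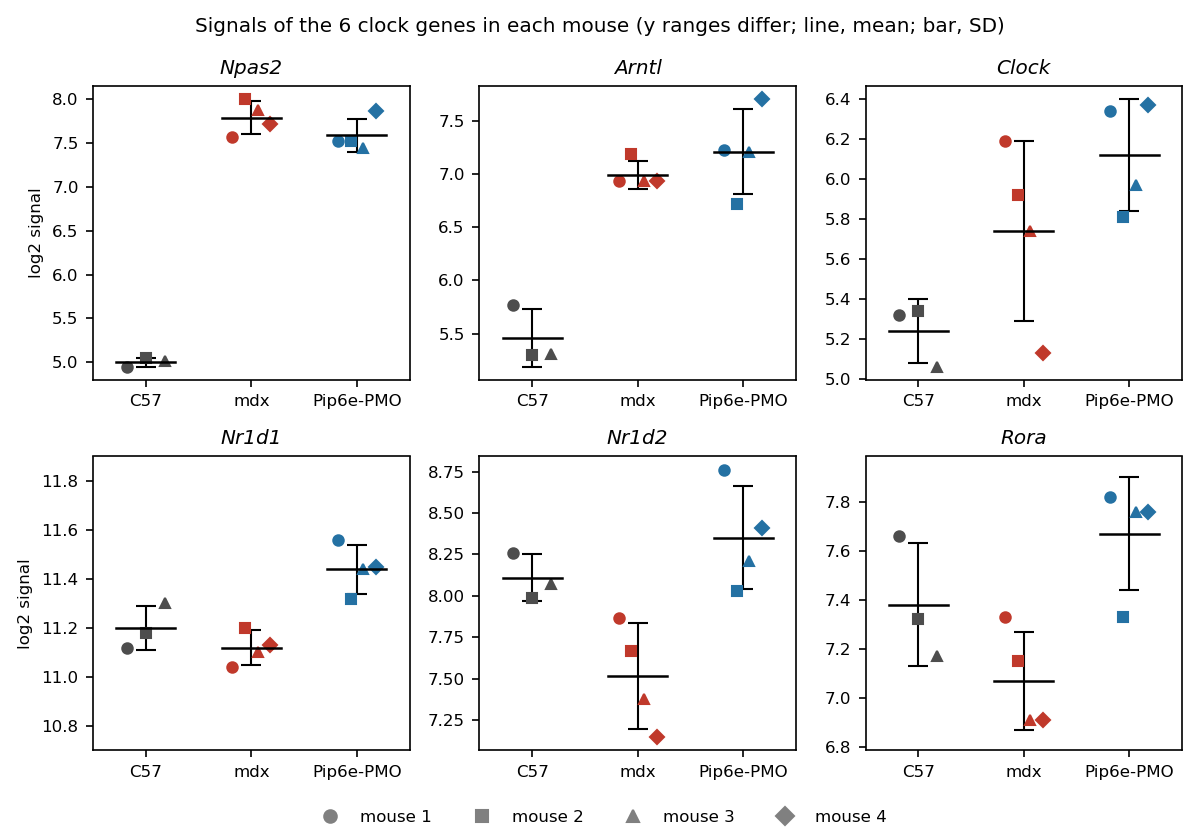
Log2 signal of each gene (y axis, with its own range in each panel) in every mouse of the C57, *mdx* and Pip6e-PMO groups (x axis); symbols give the number of the mouse within its group, which does not pair mice between groups, lines are group means and bars the SD. Npas2 and Arntl are lowest in the 3 C57 mice without overlap, and Nr1d1 and Nr1d2 are higher in all 4 treated mice than in any *mdx* mouse.

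None of the 3 receptors was called by limma between *mdx* and C57 mice (Nr1d2 had an unadjusted p of 0.00907), and all 3 were higher in treated than in *mdx* mice, Nr1d2 by 1.78-fold, Rora by 1.51-fold and Nr1d1 by 1.25-fold.

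Nr1d1 encodes REV-ERBα, a heme-binding repressor. Its signals were 11.12, 11.18 and 11.30 in C57, 11.04, 11.20, 11.10 and 11.13 in *mdx*, and 11.56, 11.32, 11.44 and 11.45 in treated mice. The C57 and *mdx* mice overlapped, and all treated mice were above all of them. The difference was -0.08 for *mdx* against C57 (-0.28 to 0.12, adjusted p = 0.646), 0.33 for treated against *mdx* (0.14 to 0.51, adjusted p = 0.0336) and 0.24 for treated against C57 (0.04 to 0.44, adjusted p = 0.0693). The interval for *mdx* against C57 leaves out a change as large as 0.33 in either direction. In the GRCm38.p6 annotation the locus of Nr1d1 overlaps that of Thra, a thyroid hormone receptor gene, by 1075 bases, and the table places their probe sets on opposite strands. Thra differed by 0.02 in *mdx* against C57 (adjusted p = 0.923) and by 0.08 in treated against *mdx* mice (adjusted p = 0.558).

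Nr1d2 encodes REV-ERBβ, which acts beside REV-ERBα. Its signals were 8.26, 7.99 and 8.07 in C57, 7.87, 7.67, 7.38 and 7.15 in *mdx*, and 8.76, 8.03, 8.21 and 8.41 in treated mice. All *mdx* mice lay below all C57 mice and below all treated mice, while treated and C57 mice overlapped. The difference between *mdx* and C57 was -0.59 (SE 0.19, adjusted p = 0.0661) and was not called. It passed the threshold without *mdx* replicate 1 (adjusted p = 0.0366), T1 (0.0402) or T2 (0.0423), and the adjusted p was 0.19 without C57 replicate 1. Treated minus *mdx* was 0.84 (0.45 to 1.22, adjusted p = 0.0186) and treated minus C57 was 0.25 (-0.17 to 0.66, adjusted p = 0.353).

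Rora encodes RORα, the activator that binds the same elements as the REV-ERBs. Its signals were 7.66, 7.32 and 7.17 in C57, 7.33, 7.15, 6.91 and 6.91 in *mdx*, and 7.82, 7.33, 7.76 and 7.76 in treated mice. The lowest treated mouse, T2, equalled the highest *mdx* mouse at 7.33, and the C57 mice overlapped both groups. The difference was -0.31 for *mdx* against C57 (-0.65 to 0.04, adjusted p = 0.256), 0.59 for treated against *mdx* (0.27 to 0.91, adjusted p = 0.0291) and 0.28 for treated against C57 (-0.06 to 0.63, adjusted p = 0.2).

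**Figure D2:**
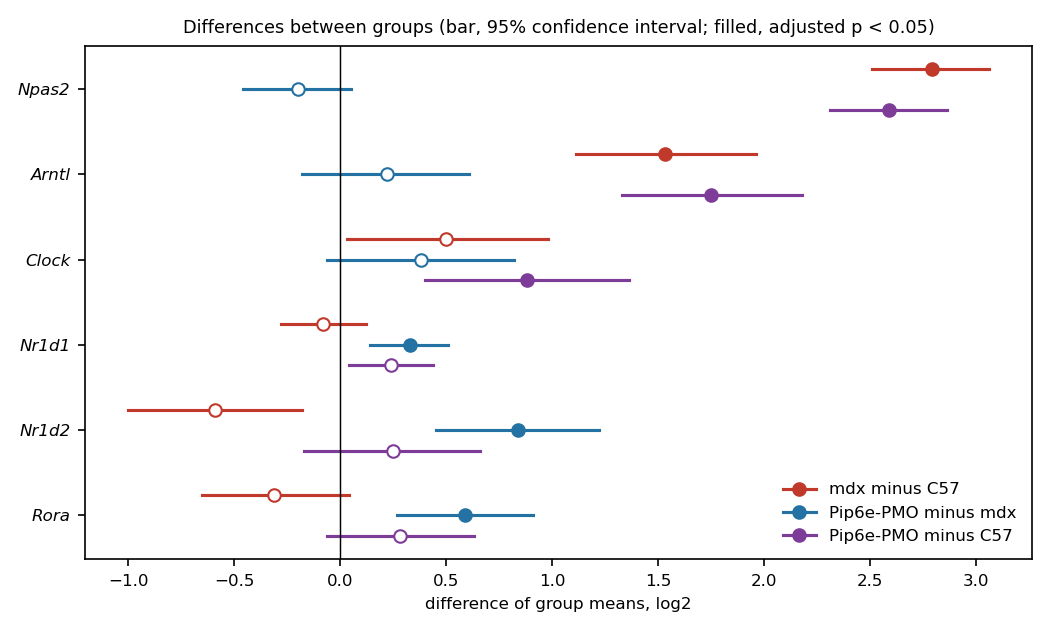
Differences of group means for each gene (x axis, log2; 0 is no difference) in the 3 comparisons, with 95% confidence intervals as bars and filled points at an adjusted p under 0.05. The filled points of Npas2 and Arntl lie in the comparisons with C57 mice, and those of Nr1d1, Nr1d2 and Rora in treated against *mdx* mice.

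The calls of the receptors in treated against *mdx* mice depended on single mice, although the differences themselves stayed at 0.29 to 0.37 for Nr1d1, 0.70 to 0.95 for Nr1d2 and 0.54 to 0.71 for Rora when any 1 mouse was removed. No gene of the 6 was called by limma without *mdx* replicate 3, *mdx* replicate 4 or T4, with 3, 3 and 4 genes at an unadjusted p under 0.05. Only Nr1d2 was called without T1 or without T3. The call of Nr1d1 was also lost without *mdx* replicate 1 or C57 replicate 2, and its adjusted p reached at most 0.0878. The test that the study's methods name, which takes each probe set alone, called 0 of the 6 after adjustment. The 3 receptors were at an unadjusted p under 0.05 in it, which is the criterion that the methods set. Of 37 other listed genes, described below, limma called 6 in this comparison and that test 0 after adjustment. The share of all probe sets that it called is not given. Whether the loss of calls was particular to the receptors was therefore not tested. Without T2, the mouse that stood apart, all 3 calls held, at an adjusted p of 0.0107 for Nr1d1, 0.00499 for Nr1d2 and 0.00542 for Rora, and treated minus C57 was 2.61 for Npas2, 1.92 for Arntl and 0.99 for Clock, each still called, with Nr1d1 called as well (0.28, adjusted p = 0.0312).

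Within the treated group, T2 had the lowest signal in 5 of the 6 genes, and T4 was highest in the 3 activators and T1 in the 3 receptors. Relative to the *mdx* mean, Nr1d2 was higher by 1.24 in T1, 0.51 in T2, 0.69 in T3 and 0.89 in T4, and Arntl differed by 0.23, -0.27, 0.22 and 0.71. T2 was thus the treated mouse nearest to the *mdx* mean in Nr1d1, Nr1d2, Rora and Clock. Restoration, the part of the difference between *mdx* and C57 means that treated mice had lost, was 7.26% ± 6.8 (SD, n = 4) for Npas2, with single mice from -2.78 to 12.3%. For Arntl it was -14.2% ± 26.1 (SD, n = 4), with single mice from -45.9 to 17.9%, so that for both genes the sign differed among the treated mice. The Arntl value was -24.9% without T2 and -3.58% without T4, and the Npas2 value ran from 4.9 to 10.6% when any 1 mouse was removed.

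**Figure D3:**
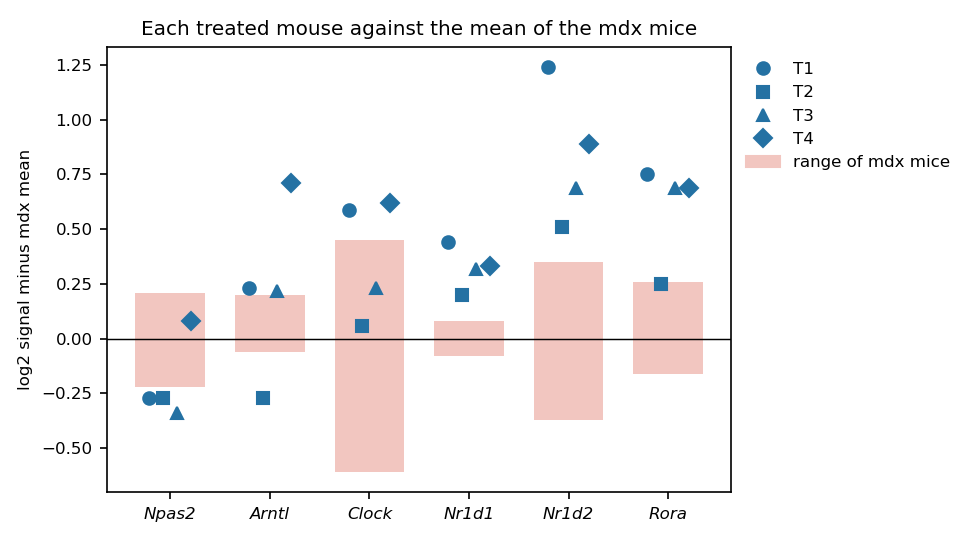
Log2 signal of each treated mouse T1 to T4 minus the mean of the 4 *mdx* mice (y axis) for each gene (x axis); the shaded boxes span the *mdx* mice. T2 is lowest in every gene but Npas2, and all 4 treated mice lie above the box in Nr1d1 and Nr1d2.

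As a description over the 11 mice, whose signals also differ by group, the activators Arntl and Npas2 had a Pearson's r of 0.94, and Nr1d2 and Rora one of 0.92. Between these pairs r was low, from -0.23 for Npas2 with Nr1d2 to 0.21 for Arntl with Rora. Nr1d1 was nearer to the other receptors, with 0.74 for Nr1d2 and 0.69 for Rora, and Clock had 0.78 with Arntl, 0.67 with Npas2 and 0.47 to 0.55 with the receptors. Among all tested probe sets with a symbol, those most like Npas2 were Ctss (0.989), Mpeg1 (0.975), Adam19 (0.970), Dapk1 (0.968) and Igfn1 (0.966). The most opposite were Per2 (-0.979), A430105I19Rik (-0.976) and Klf15 (-0.976). For Arntl the most alike were Dennd2c (0.974), Serpinb6b (0.970), Tgfb2 (0.968), Prune2 (0.966) and Il13ra1 (0.965), and the most opposite Mid1ip1 (-0.977), Dusp7 (-0.976) and Stk35 (-0.972).

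The repressors and output factors of the clock were mostly lower where Arntl and Npas2 were higher. Whether the groups were killed at the same hour is not known, and a part of the hour in these differences was not tested. Of 8 clock repressors 5 were called lower in *mdx* than in C57 mice and 0 higher, with a median difference of -1.23. Per2 had a difference of -2.17 (adjusted p = 2.1e-05), Per3 of -1.60 (adjusted p = 7.7e-05) and Cry2 of -0.95 (adjusted p = 0.00215). Gm129, now named Ciart (-3.28, adjusted p = 2.5e-05), and Bhlhe41 (-0.71, adjusted p = 0.00379) fell too, while Per1 (-1.51, adjusted p = 0.0564), Cry1 (-0.32, adjusted p = 0.0943) and Bhlhe40 (-0.12, adjusted p = 0.741) were not called. Of the output factors, Dbp (-1.68, adjusted p = 1.9e-04), Hlf (-2.16) and Tef (-0.51) fell, and Nfil3, which like Arntl is under REV-ERB control, had a difference of 0.18 (adjusted p = 0.547). Nr1d1 and Nr1d2, which are targets of the activator pair as Per2 and Dbp are, were not called in this comparison, and that their differences differ from those of Per2 or Dbp was not tested. Between treated and *mdx* mice 1 of the 8 repressors, Per3, rose, by 0.67 (adjusted p = 0.022), and the differences of all 8 ran from 0.04 to 0.67. None of the 4 output factors was called there by limma, with 2 at an unadjusted p under 0.05 and differences of -0.15 to 0.43. Against C57 mice, treated mice had 6 of the 8 repressors lower, among them Per2 by -1.96 (adjusted p = 5.9e-05) and Per1 by -1.47 (adjusted p = 0.0387), and 3 of the 4 output factors lower. Of 39 listed genes outside the 6, 37 were tested. The list takes in the clock, its regulators and 8 genes that respond to glucocorticoids. Of these 37, 2 were called higher and 9 lower in *mdx* than in C57 mice, beside 7.06% and 4.96% of all probe sets. The 2 higher were Mt1 and Mt2 of the glucocorticoid genes, which also gave 1 of the 9 lower, Klf15. In treated mice against *mdx* 4 were higher and 2 lower, beside 7.26% and 3.88% of all probe sets. The 2 lower were again Mt1 and Mt2. In treated against C57 mice 5 were higher and 11 lower, beside 15.6% and 8.96%. The glucocorticoid genes gave 1 of these 5 and 2 of these 11.

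**Figure D4:**
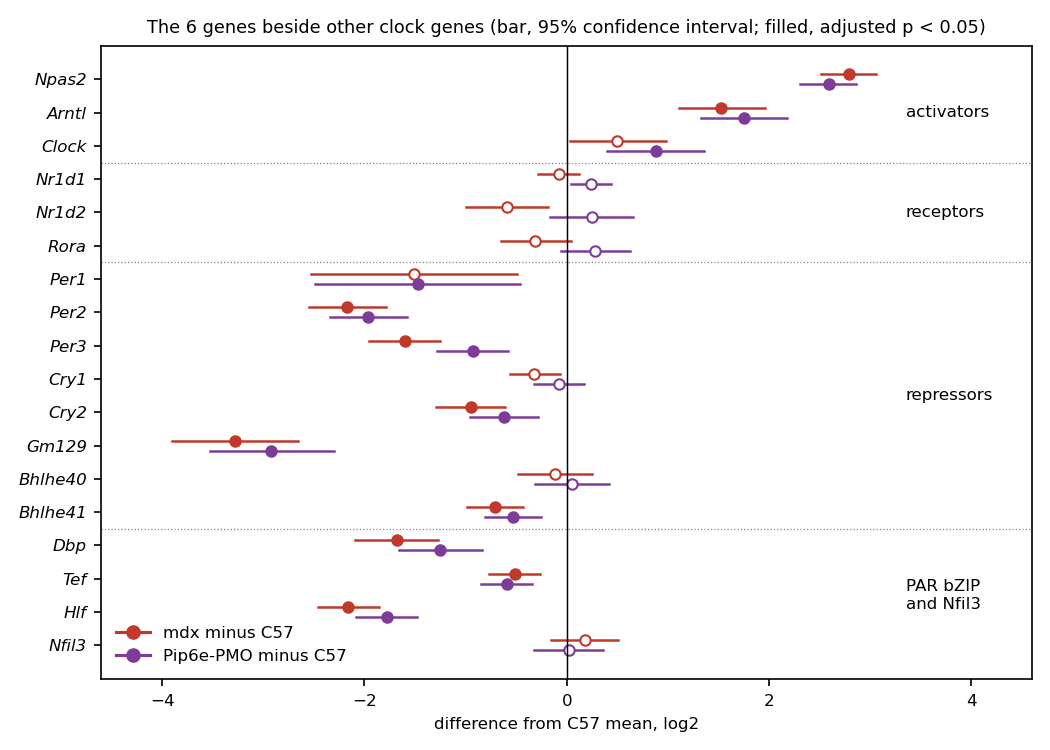
Differences from the C57 mean (x axis, log2) in *mdx* and in Pip6e-PMO treated mice for the 6 genes and for the repressors and output factors of the clock, with 95% confidence intervals as bars and filled points at an adjusted p under 0.05. Npas2 and Arntl lie to the right of 0 in both groups, and Per2, Gm129 and Hlf to the left; Nr1d2 in *mdx* mice is at -0.59 with an open point.

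Of the relatives of the 6 genes, Rorb did not reach the minimum signal, and Arntl2 had a difference of 0.00 between *mdx* and C57 mice (adjusted p = 0.998). None of 6 tested regulators of clock protein stability, 5 corepressors and NAD enzymes and 4 coactivator and heme genes was called by limma between *mdx* and C57 mice (1 at an unadjusted p under 0.05), and their differences ran from -0.29 to 0.25. In treated against *mdx* mice, where the receptors rose, Nampt, the rate-limiting enzyme of NAD salvage and a target of the clock, rose by 0.78 (adjusted p = 0.029), and Sirt1, an NAD-dependent deacetylase, by 0.60 (adjusted p = 0.0161). Ncor1, a corepressor of the REV-ERBs, was not called (0.05, adjusted p = 0.883). Among 8 genes that respond to glucocorticoids, which also set clock phase, Klf15 was lower in *mdx* than in C57 mice (-0.69, adjusted p = 3.4e-04), Mt1 and Mt2, which encode metallothioneins, were higher (Mt2 by 2.47, adjusted p = 3.8e-04), and Fkbp5 (0.05, adjusted p = 0.889), Tsc22d3, Zbtb16, Sgk1 and Pdk4 were not called.

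Markers of other cells moved with some of these results, and their part in them was not tested; in bulk muscle, fewer cells of a type and less RNA per cell cannot be told apart. All 8 macrophage markers were higher in *mdx* than in C57 mice, and their summed linear signal ran from 1570 to 1980 in the C57 group, from 4040 to 6110 in the *mdx* group and from 2730 to 4120 in the treated group. T1, T3 and T4 had lower macrophage sums than any *mdx* mouse, T2 (4120) lay within their range, and 2 of the 8 markers were called lower, while Npas2 in treated mice differed from *mdx* mice by -0.20. Regenerating fibre markers, 6 of 6 higher in *mdx*, had sums of 1080 to 1570 in the C57 group, 3180 to 5150 in the *mdx* group and 1620 to 3600 in the treated group. Beside the rise of the receptors in treated mice, 2 of 5 endothelial markers were higher than in *mdx* mice, Pecam1 by 0.78 and Tek by 0.97, with sums of 1600 to 2070 in the *mdx* group and 1760 to 2820 in the treated group, and T2 had the lowest of these sums as it had the lowest receptor signals. Of 5 adipocyte markers 4 were lower in treated than in *mdx* mice. The other, Fabp4, had a difference of 0.26 and was not called (adjusted p = 0.143 in limma). Sums of all 5 were 1130 to 1180 in the treated group and 1090 to 1840 in the *mdx* group. Fabp4 made up much of these sums, with a mean linear signal of 917 in treated and 763 in *mdx* mice. Of 6 fibroblast markers 2 were higher in *mdx* and 4 in treated mice than in C57 mice. Mbp, a myelin gene and a marker of peripheral nerve, was lower in both *mdx* groups than in C57 mice, and 0 of 4 blood markers were called in any comparison by limma, with 1 at an unadjusted p under 0.05. None of the 6 markers of T cells, in which Rora is also active, reached the minimum signal.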

How the data were processed

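TA mRNA of 11 mice was measured on Affymetrix Mouse Gene ST 1.1 arrays. The authors made the deposited intensities with the RMA-Sketch workflow of Expression Console (RMA background, sketch quantiles, median polish) and gave them on the linear scale, and the removal of probe sets below 30 in all groups was not applied in the deposited table. Quantile normalization hides shifts common to all genes, and no depth exists for arrays: their number, 3 or 4 per group, limits the precision. The 11 columns were matched to mice by the names in the labels, 0 columns of values were left unused, and no pair of arrays was identical. The deposited positions name no genome build (2 of the 6 probe sets overlap their gene in GRCm38.p6) and are not printed.

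In R 4.3.3, limma 3.58.1 (lmFit, eBayes) fitted log2 intensities of the 14494 probe sets that averaged 30 or more in some group, with a mean for each group, two-sided and Benjamini-Hochberg adjusted. The fit was tested on simulated data with known changes. Mice of a group are separate animals. Where a listed gene had more than 1 probe set, the brightest by mean log2 was read. All 6 members, the pathway and marker lists, and, for likeness, the 5 highest and 3 lowest Pearson's r with members called in *mdx* were named. Some listed genes are not reported here by name. The members and lists were chosen with earlier results of these data known. Alternatives were other filters (0 or 100), the methods' t-test, array weights, other scalings, a trended, robust prior, averaging probe sets by gene, fitting just a pair of groups, a replicate block and removal of each mouse. Summaries used Python 3.11.15 (pandas 2.3.3, NumPy 2.4.6), and figures matplotlib 3.10.9.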

Additional observations from a re-analysis of the deposited data

Results flagged for a closer look

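In 12 groups of 4 mice, a single mouse stood apart from the other three in 3 cases, by a gap to its nearest neighbour that took up more of the range of its group than Dixon's test allows at 95%; chance gives about 1 in 20 groups. Arntl was at 7.19 in *mdx* replicate 2 against 6.93 in each of the other *mdx* mice. Npas2 was at 7.87 in T4 against 7.45 to 7.52 in the other treated mice, a level within the range of the *mdx* mice. Rora was at 7.33 in T2 against 7.76 to 7.82 in the other treated mice.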

How the results depend on the processing

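Of 393 differences of the 6 genes under 22 alternatives, 354 kept their direction and their side of the threshold, 27 lost a call, 12 gained one and 0 changed direction. Npas2 in *mdx* against C57 mice stayed at 2.72 to 2.86 with each mouse left out (adjusted p 2.21e-07 to 4.93e-06), and Arntl at 1.45 to 1.69. In treated against *mdx* mice the methods' t-test called 0 of the 6 genes on log2 and 0 on linear signals, with 3 at an unadjusted p under 0.05 in each, and 0 of the pathway genes in both, with 10 and 8 at that p, against 6 of 37 by limma. Array weights called 11 pathway genes there and 5 of the 6 genes in treated against C57 mice, where the t-test on linear signals called 1 of the 6, Npas2. For treated against C57 mice the t-test called 8 pathway genes on log2 and 9 on linear signals, against 16. The cause of these changes was not tested. The share of all probe sets called is not given for any alternative, removal of mice included. Counts under the alternatives therefore cannot be read against it. With each mouse left out, 0 to 3 of the 6 and 2 to 10 pathway genes were called in treated against *mdx* mice (10 without T2, 2 without T1, T3 or T4), and 10 to 18 pathway genes in treated against C57 mice (10 without C57 replicate 3). Replicate numbers only name mice: deviations from the group means of 10 same-numbered pairs correlated by -0.30 to 0.15, with 1 pair over 0.1. A replicate block called 3 pathway genes in treated against *mdx* mice in place of 6 and left Nr1d1 there at an adjusted p of 0.0902, and changed no other call of the 6 genes. Nr1d2 in *mdx* against C57 mice was called when only these groups were fitted (adjusted p = 0.0489), with array weights (0.0203) and with arrays centred on their median (0.0469). A minimum signal of 100 left Clock untested. Arrays give no depth, and the C57 signals of Npas2, near 30, limit the size of its difference.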
